A study of Mus musculus with 12 samples.

Results

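The genes described here encode the mitochondrial machinery of aerobic ATP production, namely subunits of the respiratory complexes, cytochrome c and enzymes of the tricarboxylic acid (TCA) cycle. They were chosen by name, as 48 genes of these complexes and of the cycle, out of 16755 transcript clusters measured at the gene level. Of the 48, 38 were the only symbol of a gene-level cluster. The other 10 (Ndufa4, Ndufa10, Ndufs3, Uqcrb, Cycs, Cox5b, Cox6c, Cox8a, Atp5o and Atp5c1) had no such cluster and were read as the median of their exon-level probesets. Cells sorted as microglia, the resident macrophages of the brain, were compared between 3 Lrrc33+/+ samples (called WT) and 3 Lrrc33-/- samples (called KO-labelled). The gene, now called Nrros, encodes a protein that holds latent TGF-beta1 on myeloid cells. Brain cells of mice aged 3 weeks were gated on CD11b+, CD39+, CD45low and Ter119- by flow cytometry, and their total RNA was hybridised to Affymetrix mouse exon arrays, 1 per sample. Strain, sex and the number of mice per sample were not given in the labels, which call the samples biological replicates. The p-values therefore cover no more than the spread among these 6 samples.

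Respiratory complex I and complex II pass electrons from NADH and succinate to ubiquinone, complex III passes them to cytochrome c and complex IV to oxygen. The protons pumped on the way drive ATP synthase, called complex V. The TCA cycle supplies the NADH and the succinate, and succinate dehydrogenase is at once complex II and an enzyme of the cycle. In macrophages the balance between this pathway and glycolysis is known to shift with activation state, and microglia are known to use both.

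Most genes of oxidative phosphorylation and of the TCA cycle did not pass the test between the groups, and those that passed went both ways. Of the 38 gene-level members, 5 were higher and 4 lower in the KO-labelled samples by limma's test (Benjamini-Hochberg adjusted p under 0.05 over all clusters), which is 23.7%, against 28.4% of all clusters. By direction the background was 14.4% higher and 14.0% lower. Cox5a, Ndufb8, Fh1, Sdhc and Sdha were higher, and Uqcrq, Uqcrc2, Idh3a and Uqcrfs1 were lower. Of the 10 exon-level members, 0 were higher and 1, Cycs, was lower, against 8.38% higher and 7.53% lower, or 15.9% called, among 22184 genes at that level. At limma's unadjusted p under 0.05, 1 of these 10 was higher and 1 lower, and of the 38 gene-level members 8 were higher and 7 lower. No gene-level member changed by 1 log2 unit, that is 2-fold, or more, while 5.16% of all clusters did. The median of the 38 differences was 0.03 (log2, KO-labelled minus WT), against -0.02 over all clusters. Their median size regardless of sign was 0.15, against 0.13 over all clusters. Groups did not overlap in 24 of the 38 (63.2%), against 42.3% of all clusters. Without WT replicate 1, 2 or 3 or KO replicate 2 or 3, the lower count of the 38 was 2, and the higher count was 4 to 5 without any 1 sample.

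**Figure D1:**
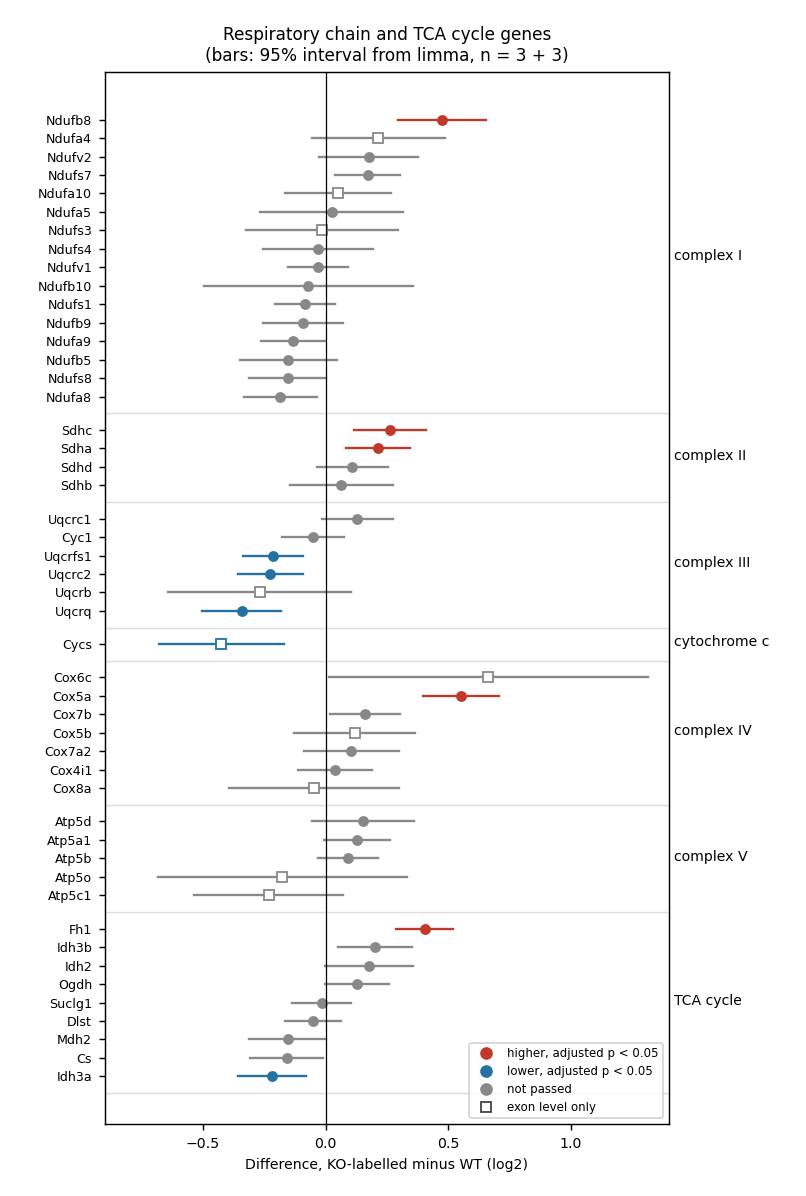
Difference of each of the 48 genes between KO-labelled and WT samples (log2), grouped by complex or cycle, with the 95% interval from limma (n = 3 and 3). Filled circles are gene-level values and open squares exon-level values. The coloured symbols are the 5 higher and 5 lower members, and Cox5a at 0.55 and Cycs at -0.43 lie at the ends of the genes that passed.

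RNA of the targeted gene was no lower in the KO-labelled samples. Nrros averaged 9.81 ± 0.18 on the log2 scale in WT (SD, n = 3), against 9.86 ± 0.03 in the KO-labelled group, and limma's test did not call it (Benjamini-Hochberg adjusted p = 0.759). The sources used here do not give the probes' place relative to the deletion, so every direction below rests on the labels. Of 9 measured microglia markers 7 were lower, with list means of 11.96 to 12.02 (log2) in WT and 10.18 to 10.21 in KO-labelled samples. Of the genes of the positive sort markers, Itgam (CD11b) fell by 1.81 and Entpd1 (CD39) by 0.36, while Ptprc (CD45) was higher by 0.46 (limma, Benjamini-Hochberg adjusted p = 0.0031), and these 3 calls held without any 1 sample. Of 9 markers of border-associated macrophages 8 were higher, with means of 9.26 to 9.36 and 11.19 to 11.30. All 13 measured cell cycle genes were higher, with list means of 6.00 to 6.11 in WT and 7.31 to 7.51 in KO-labelled samples. Monocyte markers were lower in 5 of 7, with means of 6.05 to 6.34 in WT and 5.36 to 5.84 in KO-labelled samples. Of the other lists, 1 of 7 astrocyte markers (Slc1a3, -1.50) and 1 of 7 endothelial and mural markers (Pecam1, -1.43) were lower. Higher were 1 of 9 oligodendrocyte lineage markers and 1 of 4 erythroid markers (Epor, 1.73). Beside all marker counts here, 14.4% of all clusters were higher and 14.0% lower. Neutrophil markers, 0 of 9 called, varied within groups, with means of 6.79 to 7.99 in WT and 6.01 to 7.31 in KO-labelled samples. Of the neuron markers 7 of 9 and of the lymphocyte and NK cell markers 6 of 7 were below the array medians in every sample. WT replicate 3 stood apart in sex-linked RNA, with Xist at 7.96 against 12.24 to 12.46 in the other samples. The part of these differences in the results below was not tested, and in bulk samples fewer cells of a type and less RNA per cell cannot be told apart.

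The members that moved furthest were Cox5a, Ndufb8 and Fh1. Cox5a, a nuclear-encoded subunit of complex IV, read, in order of replicate 1 to 3 as for all genes below, 8.63, 8.66 and 8.56 in WT and 9.09, 9.16 and 9.27 in KO-labelled samples, on the log2 scale. Every KO-labelled sample was above every WT sample. The difference of 0.55 (log2, SE 0.07; transcript cluster 6989406) corresponds to a 1.47-fold higher signal (limma, Benjamini-Hochberg adjusted p = 0.00075), and all 8 exon-level probesets of Cox5a were higher, by 0.14 to 0.90. Ndufb8, an accessory subunit in the membrane arm of complex I, read 6.81, 6.74 and 6.61 in WT and 7.27, 7.09 and 7.22 in KO-labelled samples (cluster 6873282). The groups did not overlap, the signal was 1.39-fold higher (log2 difference 0.47, SE 0.08; limma, Benjamini-Hochberg adjusted p = 0.0031), and all 8 probesets were higher, by 0.19 to 0.77. Fh1, fumarase, which turns fumarate into malate, read 8.0095, 8.0049 and 8.0649 in WT and 8.4465, 8.4420 and 8.4026 in KO-labelled samples (cluster 6764351). It had the tightest groups of the 3 genes, a 1.32-fold higher signal (log2 difference 0.40, SE 0.05; limma, Benjamini-Hochberg adjusted p = 0.00089), and 10 of 10 probesets higher, by 0.29 to 0.60. These 3 calls held when any 1 sample was left out.

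**Figure D2:**
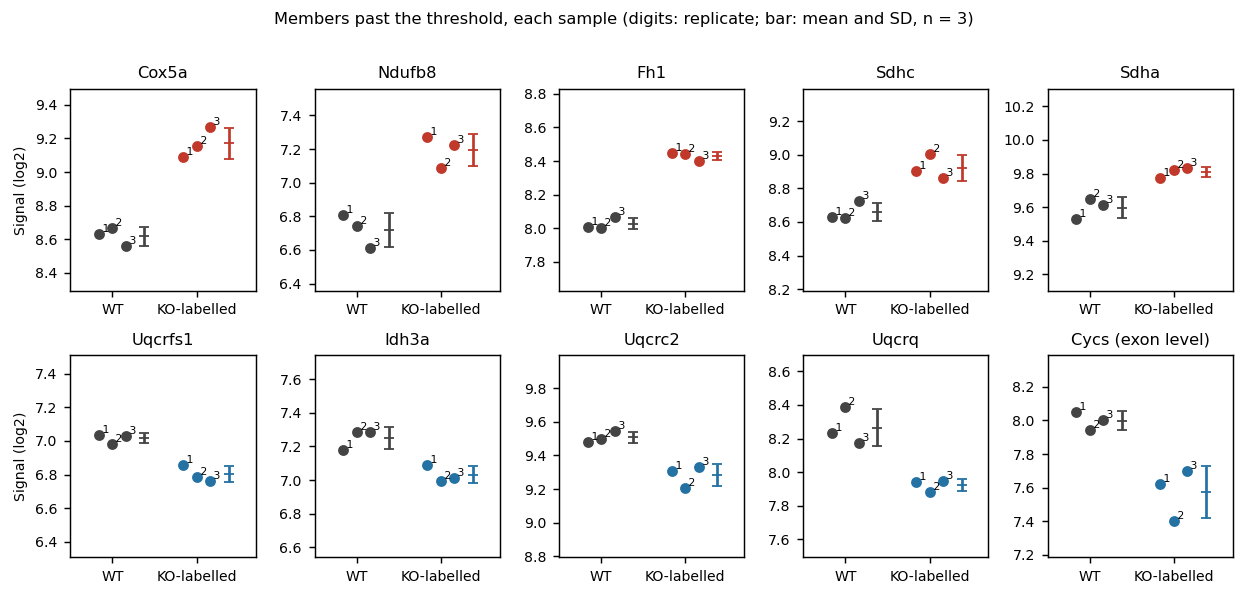
Signal (log2) of the 10 genes that passed the threshold, in each WT sample (dark) and KO-labelled sample (red where higher, blue where lower), with the mean and SD (n = 3) beside the points. All vertical axes span the same range. No KO-labelled value lies within the WT range in any of the 10 genes.

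Promoters of members that passed are shown to give the sequence upstream of genes that moved, since nuclear genes of the respiratory chain are known to be driven by NRF1, by the ETS factor GABP, by YY1 and by the oestrogen-related receptors. RefSeq sequences (GRCm38.p6) were at hand for 37 of the 48 members, each from 250 bases before to 50 bases after the start of the gene. Each window was searched on both strands for GCGCANGCG (NRF1), CCGGAAG (ETS), AAGATGG (YY1) and AAGGTCA (oestrogen-related receptors). None of these letter strings overlapped another in the windows printed here. The higher members with a sequence are Sdha (chr13:74350191-74350490, minus strand), Ndufb8 (chr19:44555393-44555692, minus strand), Cox5a (chr9:57520982-57521281, plus strand) and Fh1 (chr1:175625586-175625885, minus strand), and the lower ones are Uqcrfs1 (chr13:30545267-30545566, minus strand) and Cycs (chr6:50566520-50566819, minus strand). They are written 5′ to 3′, and capitals mark the matches.
Sdha: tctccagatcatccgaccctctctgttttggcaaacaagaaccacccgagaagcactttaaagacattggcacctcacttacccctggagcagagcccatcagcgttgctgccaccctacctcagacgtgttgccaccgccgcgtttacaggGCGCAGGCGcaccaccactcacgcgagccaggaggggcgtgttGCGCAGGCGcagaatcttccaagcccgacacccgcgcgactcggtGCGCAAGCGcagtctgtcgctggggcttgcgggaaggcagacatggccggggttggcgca
Ndufb8: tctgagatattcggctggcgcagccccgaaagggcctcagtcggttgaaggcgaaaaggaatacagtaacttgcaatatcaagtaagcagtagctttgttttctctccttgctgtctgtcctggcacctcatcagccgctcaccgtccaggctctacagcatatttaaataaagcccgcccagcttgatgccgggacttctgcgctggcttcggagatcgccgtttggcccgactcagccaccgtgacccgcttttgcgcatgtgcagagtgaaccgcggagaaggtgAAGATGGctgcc
Cox5a: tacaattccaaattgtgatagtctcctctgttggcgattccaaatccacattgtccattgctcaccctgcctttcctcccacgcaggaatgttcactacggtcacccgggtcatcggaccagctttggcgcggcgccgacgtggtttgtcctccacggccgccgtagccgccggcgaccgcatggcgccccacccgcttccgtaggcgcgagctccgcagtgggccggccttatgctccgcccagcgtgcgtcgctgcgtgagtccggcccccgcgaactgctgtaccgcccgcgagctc
Fh1: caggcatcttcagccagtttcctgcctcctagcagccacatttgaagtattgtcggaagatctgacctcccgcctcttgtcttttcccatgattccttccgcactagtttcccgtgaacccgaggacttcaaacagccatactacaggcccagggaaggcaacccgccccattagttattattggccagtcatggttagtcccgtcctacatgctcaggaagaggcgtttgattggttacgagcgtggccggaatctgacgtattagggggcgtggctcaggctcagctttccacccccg
Uqcrfs1: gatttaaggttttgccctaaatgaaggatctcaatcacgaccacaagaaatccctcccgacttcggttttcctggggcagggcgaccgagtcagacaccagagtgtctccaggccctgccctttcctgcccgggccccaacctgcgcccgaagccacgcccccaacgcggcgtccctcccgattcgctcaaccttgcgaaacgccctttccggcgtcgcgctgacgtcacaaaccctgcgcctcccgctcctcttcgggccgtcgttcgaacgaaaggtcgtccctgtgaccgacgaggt
Cycs: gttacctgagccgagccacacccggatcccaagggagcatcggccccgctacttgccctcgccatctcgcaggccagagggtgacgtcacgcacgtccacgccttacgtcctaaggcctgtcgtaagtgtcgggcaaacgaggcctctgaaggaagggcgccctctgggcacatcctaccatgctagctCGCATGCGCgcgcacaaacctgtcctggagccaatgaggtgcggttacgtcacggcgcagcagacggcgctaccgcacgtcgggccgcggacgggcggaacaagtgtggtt

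Sdha held the NRF1 letters at 3 places, starting at bases 153, 196 and 241 of its window, and Cycs held them once, at base 190. Ndufb8 held the YY1 letters at base 289, after its start site. The windows of Cox5a, Fh1 and Uqcrfs1 held none of the 4 strings, which says only that these letters are not there. Among the 37 members with a promoter, 10 (27.0%) held the NRF1 letters, against 7.03% of 27025 genes in the table, and 7 (18.9%) held the ETS letters, against 9.93%. For YY1 the shares were 10.8% and 7.28%, and for the oestrogen-related receptors 5.41% and 5.38%. The 10 members with the NRF1 letters were Atp5c1, Atp5o, Cycs, Ndufa5, Ndufa8, Ndufb10, Ogdh, Sdha, Sdhd and Uqcrc1. Of these, Sdha was higher and Cycs lower, and the other 8 did not pass. Of the 7 with the ETS letters (Cox8a, Dlst, Idh3b, Ndufs3, Ndufs8, Sdhb and Sdhd) none passed. Of the 4 with the YY1 letters (Ndufa9, Ndufb8, Ndufs4 and Ndufs7) Ndufb8 was higher. Of the 2 with the oestrogen-related receptor letters (Ogdh and Sdhd) none passed. Atp5c1, Atp5o, Cycs, Cox8a and Ndufs3 were read at the exon level. These counts rest on few genes, and 28.4% of all clusters and 15.9% of genes at the exon level were called.

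In complex I, which holds 16 of the 48 genes, Ndufb8 was the only member that passed of 13 at the gene level. That is 7.7%, against 28.4% of all clusters. Of these 13 differences 9 were negative and 4 positive, from -0.18 to 0.47 on the log2 scale around a median of -0.07. Core subunits that carry the flavin and the iron-sulphur clusters stayed within 0.18 of zero, with Ndufv1 at -0.03, Ndufs1 at -0.08, Ndufs8 at -0.16, Ndufs7 at 0.17 and Ndufv2 at 0.18 (SE 0.05 to 0.08). Ndufs7, which hands electrons to ubiquinone, read 9.99, 9.99 and 9.98 in WT and 10.09, 10.14 and 10.24 in KO-labelled samples. The groups did not overlap, yet the test was not passed (limma, Benjamini-Hochberg adjusted p = 0.064). Among accessory subunits, Ndufa8 (-0.18, adjusted p = 0.073 by limma with Benjamini-Hochberg) was the next nearest to the threshold, and Ndufa9 (-0.13), Ndufb5 (-0.15), Ndufb9 (-0.09), Ndufs4 (-0.03) and Ndufa5 (0.02) were further from it. Ndufb10 (-0.07) was the least precise, since WT replicates read 7.56, 7.38 and 6.80 against 7.15, 7.18 and 7.20 in KO-labelled samples. Its 95% interval ran from -0.497 to 0.358, so changes of up to those sizes are not excluded by these samples. At the exon level Ndufa4, long counted in complex I and since found in complex IV, was at 0.22, Ndufa10 at 0.05 and Ndufs3 at -0.01, and none passed (limma, lowest Benjamini-Hochberg adjusted p of the 3 at 0.285).

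In complex II, succinate dehydrogenase, 2 of 4 subunits passed and all 4 differences were positive. Sdhc, a membrane anchor, read 8.63, 8.62 and 8.72 in WT and 8.90, 9.01 and 8.86 in KO-labelled samples (cluster 6764043). Its signal was 1.20-fold higher (log2 difference 0.26, SE 0.06; limma, Benjamini-Hochberg adjusted p = 0.018), and 7 of 7 probesets were higher. Sdha, the flavoprotein that oxidises succinate, read 9.53, 9.65 and 9.62 in WT and 9.78, 9.82 and 9.83 in KO-labelled samples (cluster 6814387), a 1.16-fold difference (0.21, SE 0.05; limma, Benjamini-Hochberg adjusted p = 0.026) with 18 of 20 probesets higher. Both sets of values were separate between the groups but close to the threshold. Sdhc missed it without WT replicate 1 (0.25, adjusted p = 0.063) or WT replicate 2 (0.25, adjusted p = 0.066). Sdha missed it without any 1 sample except WT replicate 2, with differences of 0.18 to 0.23 and adjusted p of 0.052 to 0.089 (limma, Benjamini-Hochberg). The iron-sulphur subunit Sdhb (0.06, SE 0.09) and the other anchor Sdhd (0.11, SE 0.06) did not pass. Without KO replicate 3 Sdhb stood at -0.0053.

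Complex III held 3 of the 4 lower gene-level members. They were 3 of its 5 gene-level genes (60.0%, against 28.4% of all clusters called and 14.0% lower), a share that rests on few genes. Uqcrq, a small subunit of the complex, read 8.23, 8.39 and 8.17 in WT and 7.94, 7.88 and 7.94 in KO-labelled samples (cluster 6788274). It fell to 78.9% of the WT level (log2 difference -0.34, SE 0.07; limma, Benjamini-Hochberg adjusted p = 0.0091), kept the call without any 1 sample, and was lower in 9 of 10 probesets. Uqcrc2, a core protein of the complex, read 9.48, 9.50 and 9.54 in WT and 9.31, 9.21 and 9.33 in KO-labelled samples (cluster 6963946). The groups did not overlap, and the difference was -0.23 (SE 0.06; limma, Benjamini-Hochberg adjusted p = 0.022), with 17 of 19 probesets lower. Uqcrfs1, the Rieske iron-sulphur protein that takes electrons from ubiquinol, read 7.03, 6.98 and 7.03 in WT and 6.85, 6.79 and 6.76 in KO-labelled samples (cluster 6812035). It stood at 86.2% of the WT level (-0.21, SE 0.05; limma, Benjamini-Hochberg adjusted p = 0.020). Uqcrc2 missed the threshold without any 1 sample except KO replicate 3 (-0.19 to -0.24, adjusted p = 0.051 to 0.070), and Uqcrfs1 missed it without WT replicate 1, WT replicate 3 or KO replicate 3 (-0.20 to -0.21, adjusted p = 0.061 to 0.070). Uqcrc1, the partner core protein (0.13, SE 0.06), and the cytochrome c1 gene Cyc1 (-0.05, SE 0.05) did not pass, nor did Uqcrb at the exon level (-0.27, SE 0.16).

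Cytochrome c, encoded by Cycs, carries electrons from complex III to complex IV and, once released from mitochondria, triggers apoptosis. Its exon-level value was 8.0527, 7.9451 and 8.0008 (log2) in WT and 7.6211, 7.3988 and 7.7013 in KO-labelled samples. All 3 KO-labelled values lay below all WT values, and 18 of 19 probesets were lower. The difference was -0.43 (SE 0.11; limma over 22184 genes, Benjamini-Hochberg adjusted p = 0.036). The call was lost without any 1 sample except KO replicate 3, at -0.34 to -0.45 and adjusted p of 0.081 to 0.113. The only other exon-level member with a larger difference was Cox6c, described next, and the groups overlapped in 9 of the 10 exon-level members, against 33.7% of genes with no overlap at that level.

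Of the complex IV subunits, Cox5a rose and the other 3 gene-level members did not pass. Cox4i1, a regulatory subunit, read 8.95, 8.76 and 8.89 in WT and 8.92, 8.92 and 8.87 in KO-labelled samples, with overlapping groups and a difference of 0.04 (SE 0.06) that stood at -0.016 without WT replicate 2. The small membrane subunit genes Cox7b (0.16) and Cox7a2 (0.11) lay below the array medians (6.70 to 6.76), with values of 4.85 to 5.12 and 5.33 to 5.68. RMA is known to compress differences of dim genes, which was not tested for these genes. Cox7b is X-linked, and its difference was 0.20 without WT replicate 3 (limma, Benjamini-Hochberg adjusted p = 0.067). At the exon level Cox6c, another small subunit, read 5.57, 5.13 and 6.34 in WT and 6.14, 6.46 and 6.43 in KO-labelled samples. WT replicate 3 reached the KO-labelled range. The difference between the group means, 0.66 (SE 0.28), missed the threshold (limma, Benjamini-Hochberg adjusted p = 0.169), whereas without that sample the difference was 0.99 and passed (adjusted p = 0.013). By single probesets the difference was smaller, with a median of 0.20 over 11 probesets, 9 of them higher and 2 lower. Cox5b, the zinc-binding subunit (0.12), and Cox8a (-0.05) did not pass.

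No subunit of ATP synthase passed, and 0 of the 3 at the gene level had an unadjusted p under 0.05 by limma. The catalytic beta subunit gene Atp5b read 10.91, 10.93 and 10.92 in WT and 10.96, 11.01 and 11.07 in KO-labelled samples, a difference of 0.09 (SE 0.05) whose 95% interval ran from -0.03 to 0.21. The alpha subunit gene Atp5a1 (0.13, SE 0.06) and the delta subunit gene Atp5d (0.15, SE 0.09) were near it. Groups did not overlap in Atp5b and Atp5a1, and neither passed (limma, Benjamini-Hochberg adjusted p = 0.246 and 0.154). At the exon level the gamma subunit gene Atp5c1 (-0.23, SE 0.13) and Atp5o, which encodes a protein of the stator stalk (-0.18, SE 0.22), did not pass either. By single probesets neither gene was mostly lower. Of 7 Atp5o probesets 5 were higher and 2 lower, with a median difference of 0.17. Of 12 Atp5c1 probesets 6 were higher and 6 lower, with a median of 0.00013.

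**Figure D3:**
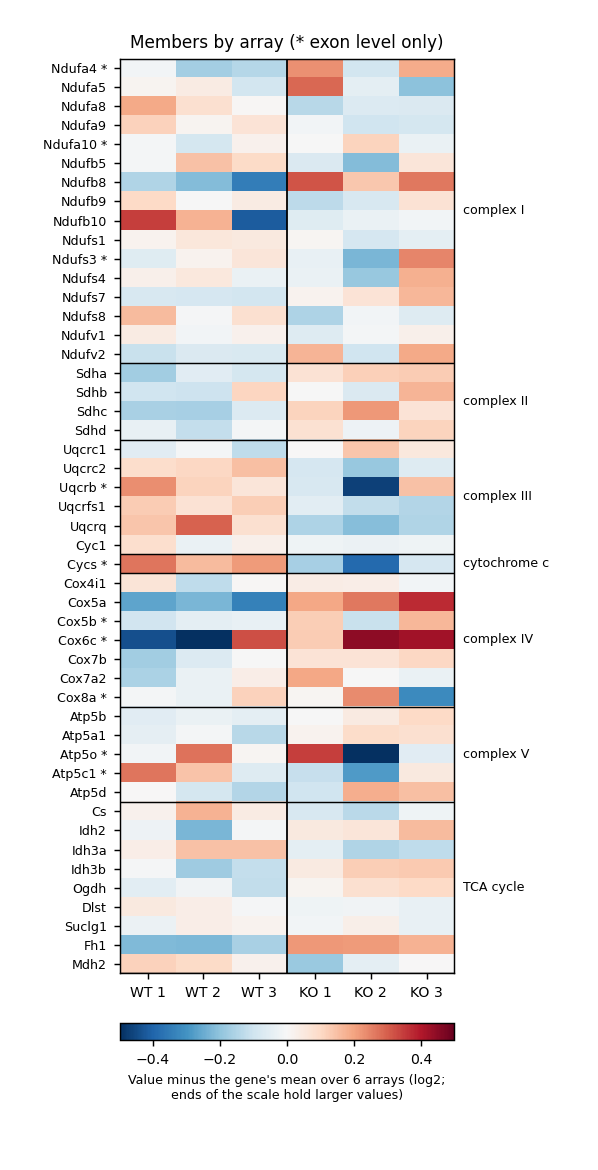
Each of the 48 genes in each of the 6 arrays, as the log2 value minus the gene's own mean over the arrays, in order of complex and cycle. An asterisk marks exon-level genes. Cox5a, Ndufb8 and Fh1 are high in all KO-labelled arrays, Uqcrq and Cycs are low in them, and most other rows are pale.

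Of 9 TCA cycle enzymes, Fh1 rose, Idh3a was lower and 7 did not pass (22.2% called, against 28.4% of all clusters). Idh3a, the catalytic subunit of the NAD-dependent isocitrate dehydrogenase, read 7.18, 7.29 and 7.29 in WT and 7.09, 6.99 and 7.02 in KO-labelled samples (cluster 6989209). It stood at 86.0% of the WT level (log2 difference -0.22, SE 0.06; limma, Benjamini-Hochberg adjusted p = 0.031), with no overlap and 14 of 18 probesets lower. The call was lost without WT replicate 2 or 3 or KO replicate 2 or 3 (-0.20 to -0.21, adjusted p = 0.078 to 0.103). Its partner subunit gene Idh3b read 10.21, 10.04 and 10.09 in WT and 10.26, 10.34 and 10.35 in KO-labelled samples, and its positive difference of 0.20 (SE 0.06) just missed the threshold (limma, Benjamini-Hochberg adjusted p = 0.053). The enzyme's remaining subunit gene, Idh3g, was at -0.02 (SE 0.07) and did not pass. Idh2, the NADP-dependent enzyme of the mitochondrion (0.18), and Ogdh, a subunit of alpha-ketoglutarate dehydrogenase (0.13), were positive. Citrate synthase, Cs, which starts the cycle (-0.16), and malate dehydrogenase, Mdh2, which follows fumarase (-0.15), were negative, and none of these 4 passed. Dlst (-0.05) and Suclg1 (-0.02), a subunit of succinyl-CoA ligase, had the smallest differences.

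The 29 gene-level members that did not pass all had 95% intervals within 0.5 log2 units of zero. After Ndufb10 the bound farthest from zero was that of Ndufv2, whose interval ran from -0.03 to 0.38. Standard errors over the 38 genes lay between 0.05 and 0.18, and their median was 0.06. Averaged over the 38 genes, each taken relative to its own mean, the arrays lay between -0.03 and 0.05 log2 units. By complex, the 5 genes of complex III were at 0.05 to 0.09 in WT and -0.08 to -0.06 in KO-labelled arrays. The 4 of complex IV were at -0.13 to -0.07 and 0.09 to 0.12, and the 4 of complex II at -0.12 to -0.01 and 0.06 to 0.12. The 3 of complex V were at -0.11 to -0.03 and -0.03 to 0.11, and the 13 of complex I at -0.05 to 0.05 and -0.06 to 0.04. The 9 of the TCA cycle were at -0.02 to -0.01 and -0.003 to 0.04.

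Exon-level gene values come from these arrays too and are no independent evidence. They gave fewer calls. At that level 3 of the 48 genes passed, Fh1 (0.53), Uqcrq (-0.38) and Cycs, against the 15.9% of all genes. The difference had the same sign at both levels in 33 of the 38 gene-level members and in 8 of the 9 that passed. Uqcrfs1 was the exception, at 0.016 against -0.21, although 6 of its 7 probesets were lower. Cox5a (0.31, adjusted p = 0.065) and Ndufb8 (0.32, adjusted p = 0.117) kept their sign and missed limma's threshold there. The median standard error over the 38 genes was 0.10 at the exon level and 0.06 at the gene level. Ndufa5 read 0.02 at the gene level and 0.42 at the exon level, and passed at neither.

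**Figure D4:**
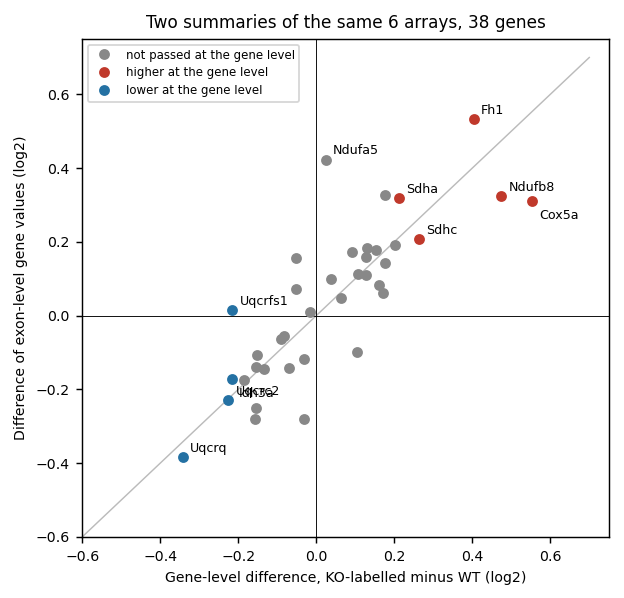
Difference between KO-labelled and WT samples (log2) of the 38 gene-level members, from gene-level values on the horizontal axis and from exon-level gene values on the vertical axis, with the line of equality. Fh1 and Uqcrq passed at both levels, and Uqcrfs1 lies on the other side of zero at the exon level.

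Other genes of the pathway were read from lists of subunits, assembly factors, enzymes and regulators, by their gene-level values. Of 22 measured genes outside the set, 3 were higher and 3 lower (27.3%, against 28.4% of all clusters), with a median of -0.02 (log2). All encode subunits except Atpif1, the gene of an ATP synthase inhibitor, which was 1 of the 3 higher (0.24). Ndufc2 (0.34) and Cox6a1 (0.25) were higher, and Ndufa12 (-0.45) and the X-linked Ndufa1 (-0.31) were lower. Leaving out WT replicate 2 or KO replicate 1 brought the lower count to 1, and leaving out WT replicate 3 or KO replicate 2 brought it to 0. Ndufa1 missed the threshold without WT replicate 3, KO replicate 1 or KO replicate 2 (-0.26 to -0.29; limma, Benjamini-Hochberg adjusted p = 0.063 to 0.072). Its values of 4.39 to 4.87 lay below the array medians (6.70 to 6.76). With exon-level gene values it stood at -0.13 (adjusted p = 0.696). Ndufa12 missed it without WT replicate 2 or 3 or KO replicate 1 or 2 (-0.34 to -0.48, adjusted p = 0.069 to 0.101). Cox6a1 kept its call without KO replicate 3 and lost it without any other sample (0.20 to 0.28, adjusted p = 0.054 to 0.107). Of 5 measured tissue-restricted isoforms, 1 passed (20.0%, against 28.4% of all clusters). It was the muscle isoform gene Cox6a2, which was lower (-0.31; limma, Benjamini-Hochberg adjusted p = 0.049). The call was kept without WT replicate 3 and lost without any other sample (-0.20 to -0.36, adjusted p = 0.057 to 0.119). Genes of the mitochondrial genome were not analysed here.

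Assembly factors build the complexes without staying in them. Of 36 measured, 5 were higher and 7 lower (33.3%, against 28.4% of all clusters), with a median of 0.01 and a median size regardless of sign of 0.13. Lrpprc, which stabilises mitochondrial messenger RNAs and is needed for complex IV, read 8.22, 8.25 and 8.28 in WT and 7.66, 7.54 and 7.64 in KO-labelled samples. It fell to a difference of -0.64 (SE 0.05; limma, Benjamini-Hochberg adjusted p = 0.00016). The complex I factor genes Ndufaf7 (-0.59, SE 0.06) and Ndufaf4 (-0.56, SE 0.08) and the complex IV factor gene Coa5 (-0.43, SE 0.06) were lower too, and all 4 kept their calls without any 1 sample. The higher count was 3 without any 1 WT sample or KO replicate 1, and the lower count was 4 without KO replicate 1.

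Of 14 mitochondrial enzymes around the TCA cycle, 4 were lower and 0 higher (28.6%, against 28.4% of all clusters called and 14.0% lower), with a median of -0.12. At limma's unadjusted p under 0.05 these counts were 6 and 0. Pdk1, a kinase that switches off pyruvate dehydrogenase, read 9.25, 9.33 and 9.14 in WT and 8.44, 8.30 and 8.51 in KO-labelled samples. Its difference of -0.82 (SE 0.08; limma, Benjamini-Hochberg adjusted p = 0.00025) was larger than that of any of the 48 members. The malic enzyme gene Me2 (-0.37), Pdha1 of pyruvate dehydrogenase itself (-0.26) and Sucla2 of succinyl-CoA ligase (-0.18) were lower. Pdha1 is X-linked and stood at -0.28 without WT replicate 3 (limma, Benjamini-Hochberg adjusted p = 0.021). Sucla2 lost its call without any 1 sample (-0.15 to -0.19, adjusted p = 0.071 to 0.117). Among 7 cytosolic and shunt enzymes, 2 were higher and 1 lower (42.9%, against 28.4% of all clusters). The aspartate aminotransferase gene Got1 (0.73) and the cytosolic isocitrate dehydrogenase gene Idh1 (0.42) were higher, and Acly, which makes cytosolic acetyl-CoA, was lower (-0.59). These 3 calls held without any 1 sample, but Idh1 missed limma's threshold with exon-level gene values (0.39, Benjamini-Hochberg adjusted p = 0.063).

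Of 20 genes of mitochondrial biogenesis and mitochondrial DNA expression, 3 were higher and 4 lower (35%, against 28.4% of all clusters). Their median difference was 0.00. The 3 higher genes were Ssbp1, Tfb1m (0.33) and Polg (0.19). The 4 lower ones were coactivator and transcription factor genes, namely Pprc1, Ppargc1a, Gabpb1 and Yy1. Of the coactivators, Pprc1 (-0.60, SE 0.06) and Ppargc1a (-0.47, SE 0.14) were lower and Ppargc1b (0.14) did not pass. Ppargc1a was dim, at 5.14, 5.69 and 5.47 in WT and 4.91, 4.92 and 5.06 in KO-labelled samples, and kept its call only without WT replicate 1 (adjusted p = 0.065 to 0.116 without another sample). Of the transcription factors, Nrf1 (0.05, SE 0.05), Gabpa (-0.10, SE 0.06) and Esrra (0.01, SE 0.06) did not pass. Gabpb1, the partner of Gabpa, was lower (-0.44, SE 0.05), and so was Yy1 (-0.28, SE 0.06; limma, Benjamini-Hochberg adjusted p = 0.015), which missed the threshold without WT replicate 1 (adjusted p = 0.055) or WT replicate 2 (adjusted p = 0.052). Ssbp1, which binds single-stranded mitochondrial DNA, rose by 0.66 (SE 0.07; limma, Benjamini-Hochberg adjusted p = 0.00049), and Tfam, which packages that DNA (-0.15), did not pass. Leaving out WT replicate 1 or 2 or KO replicate 1 or 3 brought the higher count to 1, and leaving out WT replicate 2 brought the lower count to 2. Esrra stood at -0.0089 and -0.021 without WT replicate 3 and KO replicate 1.

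**Figure D5:**
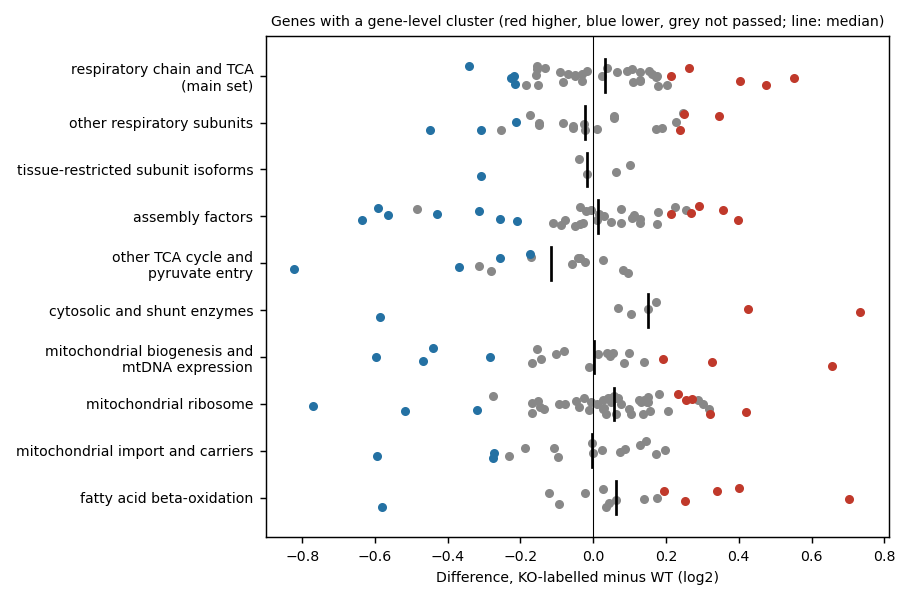
Difference between KO-labelled and WT samples (log2) of each gene with a gene-level cluster, for the main set and 9 lists of related genes, with the median of each as a line. The 38 genes of the main set lie between -0.34 and 0.55, and the lists of assembly factors, pyruvate entry and biogenesis reach -0.64, -0.82 and -0.60.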

How the data were processed

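RNA of 3 WT and 3 KO-labelled samples was read on 1-colour Affymetrix exon arrays. The deposited values are on the log2 scale, made by the authors with RMA according to the submitters' processing notes, at a gene level (16755 transcript clusters) and an exon level (1236087 probesets). The notes also name oligo and limma for the exon level, with no role. RMA brings arrays to 1 distribution and compresses differences of dim genes. Its version, the annotation and the build were not stated. All 12 value columns were mapped to samples.

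Names came from the platform annotation, updated through RefSeq (GRCm38.p6). At the gene level 14996 clusters had 1 symbol, 1019 several and 740 none. At the exon level these were 321091, 7796 and 907200 probesets. Of several clusters of a gene the brightest was used. Exon-level gene values are medians of probesets with 1 symbol. No member had more than 1 cluster. Many respiratory genes have processed pseudogenes, and cross-hybridisation was not checked.

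Differences were tested with limma 3.58.1 (R 4.3.3; lmFit, eBayes, two-sided, no covariate), with Benjamini-Hochberg adjustment over all features of a level and a call at adjusted p under 0.05. SE denotes limma's moderated standard error. The fit was tested on simulated data. The number of arrays limits the precision. Named are all members that passed, the largest and smallest difference of each complex and of the cycle, up to 4 genes of each list that passed (or 2 where none did), 6 regulators, Nrros and the sort markers. Other genes named with values were chosen after their values were seen. Members and lists were chosen with earlier results of these data known. Same-numbered samples of the groups were not paired, since deviations from group means correlated at -0.03, -0.01 and 0.04. Alternatives were each sample left out, a replicate block, exon-level gene values, a second quantile normalization, median centring, removal of the dimmest 25% of features, another variance model, array weights and the mean over clusters.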

Additional observations from a re-analysis of the deposited data

How the results depend on the processing

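Of 138 values of the 10 members that passed under these alternatives, 101 kept both direction and call, 36 kept the direction and lost the call, and 1 reversed (Uqcrfs1, 0.016 with exon-level gene values). Fh1 and Uqcrq kept their calls in all 14 settings, and Cox5a and Ndufb8 lost theirs only with exon-level gene values. Over the 6 fits that leave out 1 sample, the 38 gene-level members gave 4 to 5 higher and 2 to 3 lower, and the 10 exon-level members 0 to 1 of each. With the replicate block these counts were 3 higher and 1 lower, and 0 lower at the exon level, although replicate numbers did not pair the samples. With exon-level gene values 1 of the 48 was higher and 2 were lower. Other settings gave 5 to 7 higher and 4 to 5 lower, and the median stayed between 0.010 and 0.063. Calls over all 16755 clusters ran from 3786 to 5046, and 3530 of 22184 genes passed with exon-level values. With the dimmest 25% of features removed, 4911 of 12566 clusters passed, and 7 of 37 members were higher and 4 lower. With the mean over clusters, 4405 of 14847 genes passed.

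Differences near zero changed sign without reaching the threshold. With each sample left out in turn, Ndufs3 ran from -0.138 to 0.098 (0.014, 0.0022 and 0.098 without WT replicate 3, KO replicate 1 and KO replicate 2), Cox4i1 from -0.016 to 0.079, Sdhb from -0.0053 to 0.133 and Esrra from -0.021 to 0.030. Array weights put Ndufs3 at 0.0027. Others that changed sign were Cyc1 and Suclg1 (0.071 and 0.010 with exon-level gene values), Esrra (-0.017 after the second normalization) and Tfam (0.020 with exon-level gene values).

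With the replicate block the other lists gave 1 lower subunit, 0 lower isoforms, 2 higher assembly factors and 3 higher beta-oxidation genes. With exon-level gene values, where more genes of each list were measured, 8.38% of all genes were higher and 7.53% lower. There 0 of 38 subunits and 0 of 9 isoforms were lower, and 3 of 45 assembly factors were higher and 3 lower. Higher were 1 of 11 shunt enzymes, 1 of 22 biogenesis genes, 3 of 56 ribosomal genes and 1 of 17 beta-oxidation genes. Of 28 import and carrier genes 1 was higher and 5 were lower. Counts of the exon and gene levels are therefore not directly comparable. The cause of these differences between settings was not tested.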

Other observations

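Genes of mitochondrial translation, import and fatty acid use were read in the same way. Of 49 measured genes of the mitochondrial ribosome, 5 were higher and 3 lower (16.3%, against 28.4% of all clusters), with a median of 0.06 (log2). Mrpl17 (-0.77, SE 0.09) and Mrpl16 (-0.52, SE 0.08) of its large subunit were lower, and Mrpl1 (0.42) and Mrps18a (0.32) were higher. Mrpl1 missed limma's threshold without WT replicate 1, KO replicate 1 or KO replicate 3 (0.36 to 0.37, Benjamini-Hochberg adjusted p = 0.059 to 0.064), and only 3 genes were higher when KO replicate 1 or 3 was left out. Of 16 genes of import and carriers, 0 were higher and 3 lower by limma (18.75% called, against 28.4% of all clusters), or 1 and 5 at an unadjusted p under 0.05. Vdac2, a channel of the outer membrane, read 10.16, 10.18 and 10.08 in WT and 9.64, 9.54 and 9.46 in KO-labelled samples, a difference of -0.59 (SE 0.06). The ADP/ATP carrier gene Slc25a4 and the chaperone gene Hspa9 were lower by less (-0.28 and -0.27), and neither passed when WT replicate 1, WT replicate 2 or KO replicate 2 was left out (adjusted p = 0.057 to 0.093), where Vdac2 alone was lower. Slc25a4 was also lost without KO replicate 1 (adjusted p = 0.055) and Hspa9 without KO replicate 3 (adjusted p = 0.059).

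Of 15 genes of fatty acid beta-oxidation, 5 were higher and 1 lower (40.0%, against 28.4% of all clusters called and 14.4% higher), with a median of 0.06. The thiolase gene Acaa2, which cuts off acetyl-CoA, read 7.02, 7.02 and 6.93 in WT and 7.64, 7.67 and 7.77 in KO-labelled samples, a difference of 0.70 (SE 0.06; limma, Benjamini-Hochberg adjusted p = 0.00016). Cpt1a (0.40) and Cpt2 (0.34), which bring fatty acids into mitochondria, were higher, and Acads, the short-chain acyl-CoA dehydrogenase gene, was lower (-0.58). Cpt2 missed the threshold without any 1 WT sample or KO replicate 3 (0.33 to 0.35, adjusted p = 0.066 to 0.084). Leaving out WT replicate 1 or 3 or KO replicate 3 brought the higher count to 2, and leaving out either replicate 2 brought it to 3.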
